A study of Caenorhabditis elegans with 2 samples.

Results

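The small ribosomal subunit protein genes of Caenorhabditis elegans were taken as all protein-coding genes whose symbol starts with rps- in the Ensembl annotation of WBcel235. There were 31 such genes among 19973 protein-coding genes on the 6 nuclear chromosomes, and all 31 were scored. The score was the highest signal among ZTF-6 peaks with their summit no more than 500 bp from one of the gene's annotated starts. ZTF-6, a zinc finger protein, had been mapped by chromatin immunoprecipitation and sequencing (ChIP-seq) in whole young adults aged 62 hours of strain RW12301. In this strain CRISPR had placed a TY1, EGFP and 3xFLAG tag on the ztf-6 gene itself (allele st12301), and an antibody against GFP was used. DNA had been sheared to 200 to 800 bp. There was a single group with 2 biological replicates, grown from larvae starved after bleaching. No other genotype, treatment or stage was compared, a single strain was used, and whole animals do not show in which tissue a site is bound.

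The small subunit of the cytosolic ribosome binds the messenger RNA and holds the decoding site, and it is built from ribosomal RNA and these proteins. Ribosomal protein genes are among the most strongly transcribed genes of the worm. Many worm transcripts are trans-spliced to a short leader, so an annotated start often marks the splice site rather than the point where transcription begins. In the rps genes the most upstream annotated start lay a median of 11 bp from the first coding base (1 to 141 bp). Distances below are from these annotated starts, with negative values upstream.

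A group of 10 rps genes had a peak in the authors' conservative list of 551 reproducible peaks: rps-1, rps-12, rps-15, rps-19, rps-20, rps-22, rps-23, rps-24, rps-26 and rps-28. That is 10 of 31 (32.3%, exact 95% binomial interval 16.7 to 51.4), beside 1.46% of all protein-coding genes. The second thresholded list of the series gave 9 of 31 (29.0%, beside 1.55%), with rps-22 the gene not in it. The list of each replicate alone gave 6 of 31 (19.4%), beside 0.661% of protein-coding genes in replicate 1 and 0.696% in replicate 2. The 5 genes rps-1, rps-12, rps-19, rps-23 and rps-24 had a peak in all 4 thresholded lists. Rps-28 was in the list of replicate 1 and not in that of replicate 2, and rps-26 the reverse. The interval covers counting error only. The count was 3 of 31 with a window of 200 bp (beside 0.696% of all protein-coding genes) and 4 of 31 when a peak counted only for the gene with the nearest start (beside 0.876%). It was 6 of 31 at an irreproducible discovery rate (IDR) of at most 0.001 (beside 0.471%). In the counts of 3 and 4, rps-23 was held by a weaker peak inside the gene (signal 76.3), not by its upstream peak at -294 bp.

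The sequences under the summits show which short words some of these sites shared. Windows reaching 50 bases to each side of the summit are printed for 6 genes, 4 of the 5 present in both replicate lists, and rps-28 and rps-22. Each runs 5′ to 3′ in the direction of the rps gene, and its sequence was read from RefSeq's WBcel235 (ce11). Capitals mark 6-base words, on either strand, that at least 4 of the 10 windows held and that under 5% of upstream windows held.
rps-24 (chrIV:385497-385597, plus strand): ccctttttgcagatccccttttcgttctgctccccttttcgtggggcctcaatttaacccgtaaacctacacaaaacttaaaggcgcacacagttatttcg
rps-1 (chrIII:4475601-4475701, plus strand): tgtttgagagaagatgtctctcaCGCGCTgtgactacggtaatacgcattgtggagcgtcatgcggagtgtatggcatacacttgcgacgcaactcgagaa
rps-23 (chrIV:12391297-12391397, minus strand): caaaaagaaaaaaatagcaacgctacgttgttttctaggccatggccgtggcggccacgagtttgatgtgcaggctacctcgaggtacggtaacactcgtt
rps-12 (chrIII:5679076-5679176, plus strand): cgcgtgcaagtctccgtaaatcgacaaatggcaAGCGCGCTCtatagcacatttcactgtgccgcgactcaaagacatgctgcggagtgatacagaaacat
rps-28 (chrIV:1659207-1659307, plus strand): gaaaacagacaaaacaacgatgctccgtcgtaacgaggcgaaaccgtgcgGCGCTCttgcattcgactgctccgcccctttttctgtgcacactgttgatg
rps-22 (chrIII:1950393-1950493, plus strand): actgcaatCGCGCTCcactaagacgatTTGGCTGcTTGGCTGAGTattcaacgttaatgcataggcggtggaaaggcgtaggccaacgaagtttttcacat

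The windows held more G and C than most upstream windows. Their GC content ran from 41.6% to 56.4% over the 10 genes, beside a median of 50.5% for all 551 summits. Windows of the same length centred 250 bp upstream of 19973 protein-coding genes had a median of 33.7%. AGCGCG lay in the windows of rps-1, rps-12, rps-15 and rps-22, and in 11.4% of all peak windows and 1.69% of upstream windows. GAGCGC, which can overlap it by 5 bases, lay in those of rps-12, rps-15, rps-22 and rps-28 (14.9% of peak windows and 1.87% of upstream windows). ACTCAG lay at rps-15, rps-19, rps-20 and rps-22 (2.36% and 2.04%). The same 4 windows held CAGCCA (6.53% and 2.50%) and AGCCAA (4.54% and 4.13%), which overlap in the 7 bases CAGCCAA. The word ACCTGC lay at rps-15, rps-19, rps-20 and rps-26 (5.99% and 1.84%). The windows of rps-23 and rps-24 held none of these words. The remaining word in 4 windows was AAAAAT, which 51.5% of upstream windows also held. These words were chosen after the windows had been read, out of 2080 possible words, and the matches were not tested.

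A list of 9 further words was looked up in the same windows, on both strands. GGGCGG lay in the window of rps-28 (7.80% of peak windows and 2.19% of upstream windows), and GAGAGA in that of rps-1 (18.0% and 6.48%). TTTTTT lay in 3 of the 10 windows (18.3% and 45.1%). The other 6 words lay in none of the 10 windows. These were the E-box CACGTG (4.90% of peak windows and 1.58% of upstream windows), the TATA word TATAAA (5.08% and 13.0%) and the GATA word GATAAG (2.18% and 4.41%). They also include the word CTGCGTC (5.99% and 1.28%), the splice-acceptor word TTTCAG (6.53% and 17.7%) and the repeat CGCGCG (7.80% and 0.976%). No match says only that these letters are not in these windows.

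The 10 genes are described by where their proteins sit in the subunit. How many of all rps genes belong to each place was not counted, so this order is not a result. The first 3 encode proteins on the side where the messenger RNA leaves. At rps-1 (WBGene00004470; chromosome III, peak 4475511 to 4475790) the signal was 63.6 in replicate 1, 83.8 in replicate 2 and 148.0 in the list of the replicates together. Its summit lay at -267 bp, within exons of the ncRNA genes F56F3.10 and F56F3.11. The nearest start was that of F56F3.11, 6 bp upstream of the summit, and that of F56F3.10 lay 75 bp upstream of it. At rps-26 (WBGene00004495; chromosome I, peak 14759371 to 14759650), whose protein contacts the messenger RNA just upstream of the decoded codon, the signal was 29.6 and 54.6 in the replicates and 78.1 together. That summit lay at -419 bp from rps-26 but at -38 bp from the start of tmem-107, which encodes a protein of the ciliary transition zone. At rps-28 (WBGene00004497; chromosome IV, peak 1659117 to 1659396) the replicates gave 83.3 and 36.5, and the joint list 120.2, with the summit at -434 bp and no other start within 500 bp. The replicates differed most at this gene among the 10: replicate 2 had 0.438 of the signal of replicate 1.

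The next 4 genes encode proteins of the head of the subunit. At rps-12 (WBGene00004481; chromosome III, peak 5678986 to 5679265), known in Drosophila for a part in cell competition, the replicates gave 65.7 and 67.3 and the joint list 131.6. The summit lay at -172 bp. At rps-19 (WBGene00004488; chromosome I, peak 9625944 to 9626223), whose human counterpart is mutated in Diamond-Blackfan anaemia, the values were 63.4 and 58.3 in the replicates and 118.8 together, at -288 bp. At both genes the replicates differed little.

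The peaks at the other head protein genes described here were weaker. At rps-15 (WBGene00004484; chromosome I, peak 8816447 to 8816726), whose protein reaches towards the decoding site, the replicates gave 50.8 and 37.4 and the joint list 88.5, at -394 bp. At rps-20 (WBGene00004489; chromosome I, peak 14469216 to 14469495), whose human counterpart is ubiquitylated when ribosomes collide, they gave 31.9 and 35.3 and the joint list 75.9, at -253 bp. Neither gene was in the thresholded list of a single replicate.

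The last 3 genes encode proteins of the body. The strongest peak of all rps genes lay at -340 bp from rps-24 (WBGene00004493; chromosome IV, peak 385497 to 385620), whose human counterpart is needed for processing of ribosomal RNA precursors. Its signal was 113.7 in replicate 1, 78.7 in replicate 2 and 191.4 together, the rank of 21 among the 551 peaks. It was also the narrowest, at 124 bp, where the other 10 peaks of rps genes were 280 bp wide, as was the median peak of the list. Its deposited q-value of 0.0753 was the highest of the 11 peaks of rps genes, of which the lowest was 0.0373 at rps-12. At rps-22 (WBGene00004491; chromosome III, peak 1950303 to 1950582), the worm counterpart of human RPS15A, the replicates gave 30.8 and 47.3 and the joint list 76.2, with the summit at -92 bp.

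Rps-23, whose protein lines the decoding centre, was the only rps gene with a pair of peaks in the conservative list (WBGene00004492; chromosome IV). The stronger (12391207 to 12391486) had a signal of 73.3 in replicate 1, 58.7 in replicate 2 and 133.4 together, at -294 bp. The weaker (12390645 to 12390924; 76.3 together) lay inside the gene, with its summit in a coding exon, 268 bp downstream of the most upstream start and 22 bp downstream of the second annotated start. It lay at -130 bp from the snoRNA gene F28D1.13.

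**Figure D1:**
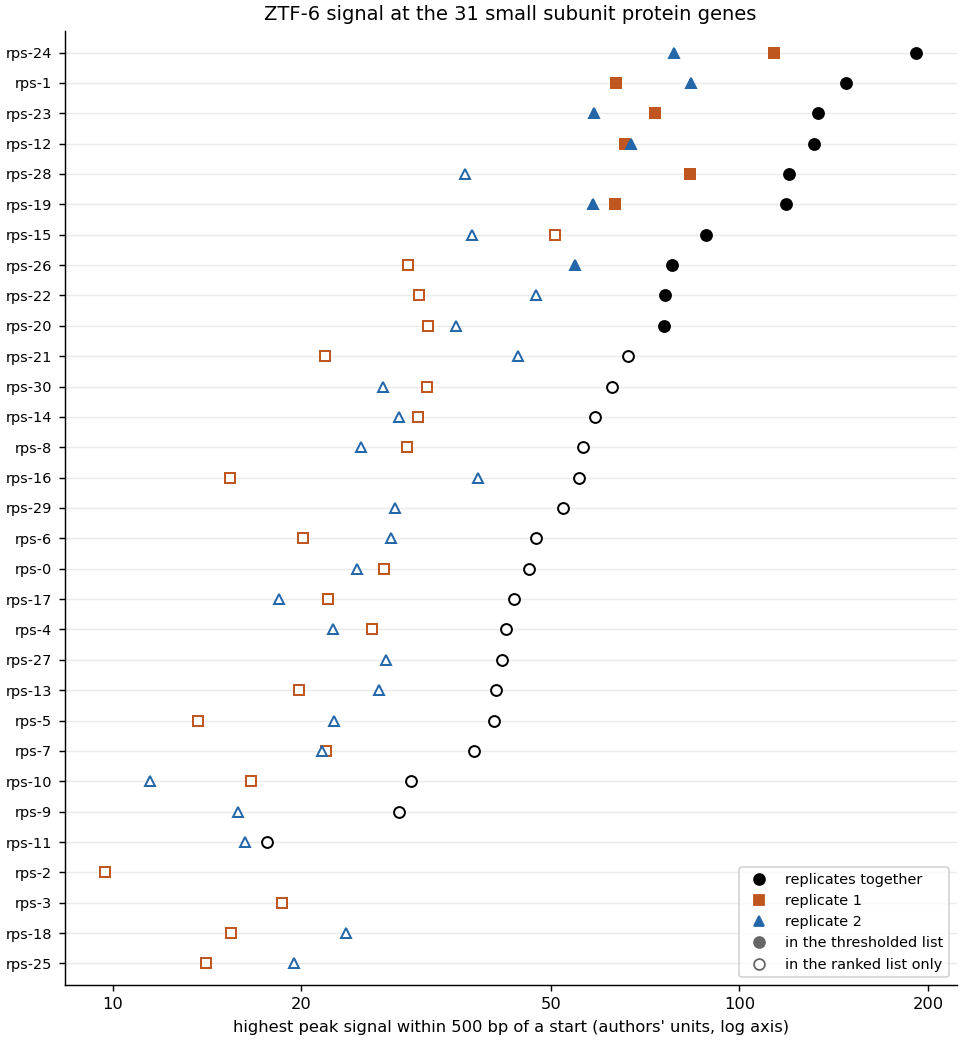
Highest ZTF-6 peak signal (authors' units, log axis) within 500 bp of a start for each of the 31 rps genes, in the ranked lists of replicate 1 (squares), replicate 2 (triangles) and the replicates together (circles); filled symbols are in the matching thresholded list. The 10 genes with a conservative peak run from 75.9 at rps-20 to 191.4 at rps-24, and rps-21, the next, stands at 66.5.

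The boundary between genes with and without a peak was a threshold on a continuous range. Just inside it were rps-20 (signal 75.9, IDR 0.00990) and rps-22 (76.2, IDR 0.00610). Just outside it by signal were rps-21 (66.5, IDR 0.0671), rps-30 (62.7, IDR 0.0334) and rps-14 (58.8, IDR 0.0273). The summits of these 3 lay at -304, -284 and -288 bp, within the range of the genes that had a peak. Rps-30 encodes a small subunit protein that in human is made as a fusion with a ubiquitin-like protein, and rps-14 one of the platform. These IDR values come from the ranked list of 74251 peaks. At an IDR of at most 0.05 there, rps-14 and rps-30 joined the other 10. Membership at this boundary changed in the second ranked list of the series, of 78326 peaks. Its IDR was at most 0.05 at the strongest peaks of rps-21 (0.0124), rps-17 (0.0184), rps-30 (0.0210) and rps-0 (0.0266). It was above 0.05 at those of rps-14 (0.132) and rps-22 (0.0958).

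Most of the 21 genes without a conservative peak still had a ranked peak. In the ranked list, which keeps 74251 peaks before any threshold, 27 of the 31 rps genes had some peak, beside 60.7% of protein-coding genes. The 4 with none in this list were rps-2, rps-3, rps-18 and rps-25, and each had a ranked peak in at least 1 other list. In the ranked list of replicate 1 alone 27 genes had a peak (beside 46.1%), and in that of replicate 2 29 (beside 50.6%). The 17 genes with only a ranked peak had signals of 17.6 to 66.5, with a median of 43.7. The lowest were rps-11 (17.6), rps-9 (28.7) and rps-10 (30.0). The median over all protein-coding genes with a ranked peak was 29.0.

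By ranked signal the rps genes stood high among protein-coding genes. Their median percentile was 95.9, and it was 89.6 over the 21 genes without a conservative peak. In the top 5% of protein-coding genes, at a signal of 49.8 or more, were 16 of the 31 (51.6%). In replicate 1 and in replicate 2 alone 13 of 31 (41.9%) were, at a cut of 27.7 and 28.6, with median percentiles of 87.9 and 93.9. With a window of 200 bp the median percentile was 32.5 and 7 genes were in the top 5%.

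The strongest conservative summit of each of the 10 genes lay upstream of its rps gene, between -434 and -92 bp, with a median of -291 bp. Of the 10, 8 were at least 200 bp upstream. Of the other 282 protein-coding genes with a conservative peak, 246 (87.2%) had the strongest one upstream, with a median position of -189.5 bp. Among the 17 rps genes with only a ranked peak, 8 strongest summits lay upstream and 9 downstream. Over all protein-coding genes with only a ranked peak 47.2% lay upstream. The signals of the 8 upstream summits ran from 17.6 to 66.5 (median 54.3) and those of the 9 downstream from 28.7 to 55.5 (median 41.7), so these ranges overlapped.

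**Figure D2:**
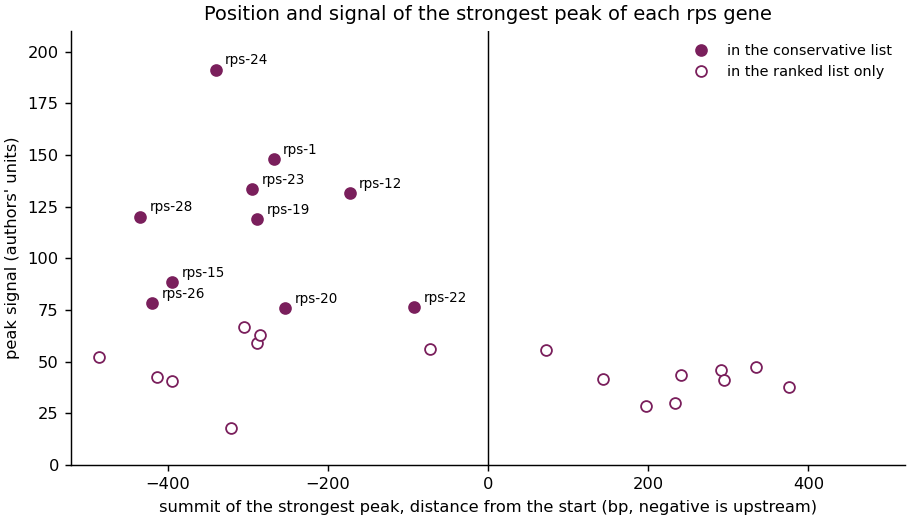
Signal of the strongest peak (authors' units) against the distance of its summit from the annotated start (bp, negative is upstream) for the 27 rps genes with a ranked peak; filled points are the 10 genes in the conservative list. The filled points lie between -434 and -92 bp, and open points lie on both sides of the start.

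Most of these sites lay between the rps gene and a gene transcribed the other way. At 7 of the 10 genes the summit lay upstream of both starts, and at 6 of these 7 it was nearer to the start of the neighbour. At rps-15 both distances were similar, with -394 bp from rps-15 itself. The same shares over all bound genes are not given here, so these counts do not set the rps genes apart. The neighbours were ska-3 at rps-12 (summit at -121 bp from it), F36A2.9 at rps-15 (-387 bp), hsr-9 at rps-19 (-157 bp), ekl-4 at rps-20 (-144 bp), dpm-3 at rps-23 (-240 bp) and tmem-107 at rps-26 (-38 bp). At rps-22 the neighbour polh-1, a translesion DNA polymerase gene, was the farther of the pair (-174 bp). Ska-3 is known for chromosome segregation, hsr-9 for the DNA damage response and dpm-3 for protein glycosylation. The starts of these pairs were 266 to 781 bp apart, and from the peaks alone the genes of a pair cannot be told apart as the one a site belongs to.

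This arrangement was common among bound genes in general. A protein-coding start on the other strand lay within 1000 bp upstream of 8 of the 10 rps genes with a peak, of 11 of the 21 without one and of 18.3% of all protein-coding genes. For all 292 protein-coding genes with a conservative peak the share was 51.7%. A summit between such starts could count for both genes of a pair, which raises the share among bound genes by construction. The eighth of the rps genes was rps-1, with ifet-1, a translational repressor gene, 768 bp away and its start over 500 bp from the summit. Rps-24 and rps-28 had no such neighbour and no other start within 500 bp of the summit.

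A set of 3 rps genes without a conservative peak faced a large subunit gene: rps-10 with rpl-24.1 (610 bp between starts), rps-14 with rpl-36 (663 bp) and rps-30 with rpl-39 (499 bp). Their ranked signals were 30.0, 58.8 and 62.7. Of the 11 conservative peaks at rps genes, 3 also lay within 500 bp of a snoRNA start. These were at -252 bp from F54E7.10 (rps-12), -130 bp from F28D1.13 (the weaker rps-23 peak) and -99 bp from F39B2.14 (rps-26). The same share over all conservative peaks is not given here, so this count does not set the rps sites apart. Of the rps genes, 8 lie on chromosome I, 9 on III, 10 on IV, 3 on V and 1 on II. Those with a conservative peak were 4 on I, 3 on III and 3 on IV. Shares by chromosome over all protein-coding genes are not given, so these counts set no chromosome apart.

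**Figure D3:**
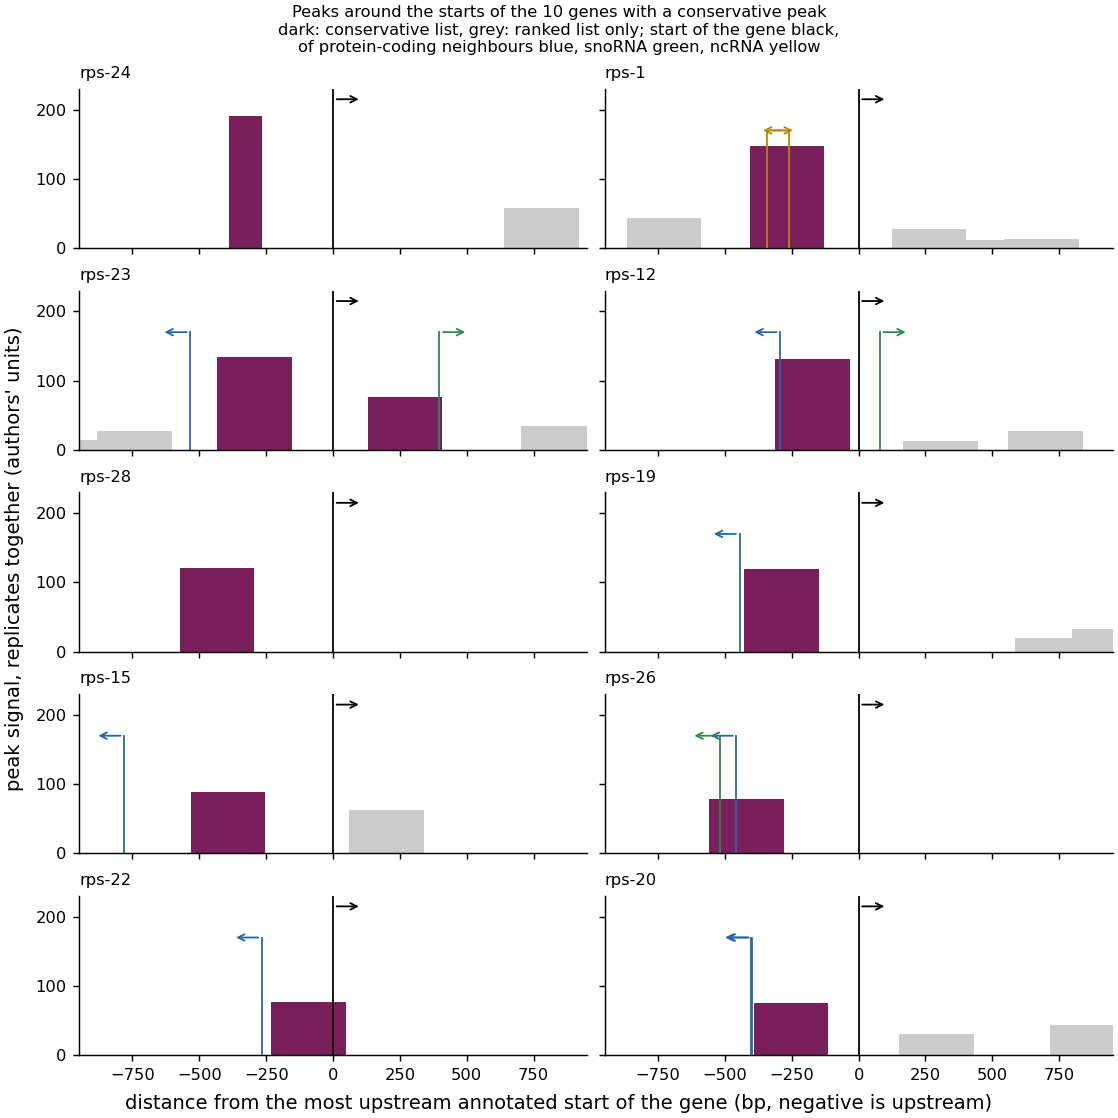
Peaks around the starts of the 10 rps genes with a conservative peak, ordered by signal: each box spans a peak and its height is the signal of the replicates together (authors' units), against the distance from the most upstream start (bp); vertical lines with arrows are starts and their direction. The dark boxes of rps-12, rps-15, rps-19, rps-20, rps-22, rps-23 and rps-26 have a protein-coding start on the far side that points away.

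The replicates placed the summits of the bound genes close together. The strongest ranked summits of replicate 1 and replicate 2 were a median of 8 bp apart at the 10 genes with a conservative peak, from 1 bp at rps-1 and rps-12 to 46 bp at rps-19. At the 15 other genes with a ranked peak in both replicates the median gap was 69 bp, from 0 to 750 bp, and 6 of the 15 were within 50 bp. Part of that contrast follows from the choice of the genes, since reproducible peaks define the conservative list. Rps-14 was the gene with a gap of 0 bp.

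Over the 25 rps genes with a ranked peak in both replicates Spearman's rho of the signal was 0.709 and Pearson's r of its log2 was 0.755. Without the 2 genes farthest from the replicate 1 median r was again 0.755. Over the 15 genes without a conservative peak rho was 0.221, and over 6025 protein-coding genes it was 0.339. These are descriptions over genes that share libraries, depth and control. Among the 10 genes with a conservative peak, 5 were higher in replicate 1 and 5 in replicate 2, with a median ratio of replicate 2 to replicate 1 of 0.972. The median over all protein-coding genes was 1.03.

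**Figure D4:**
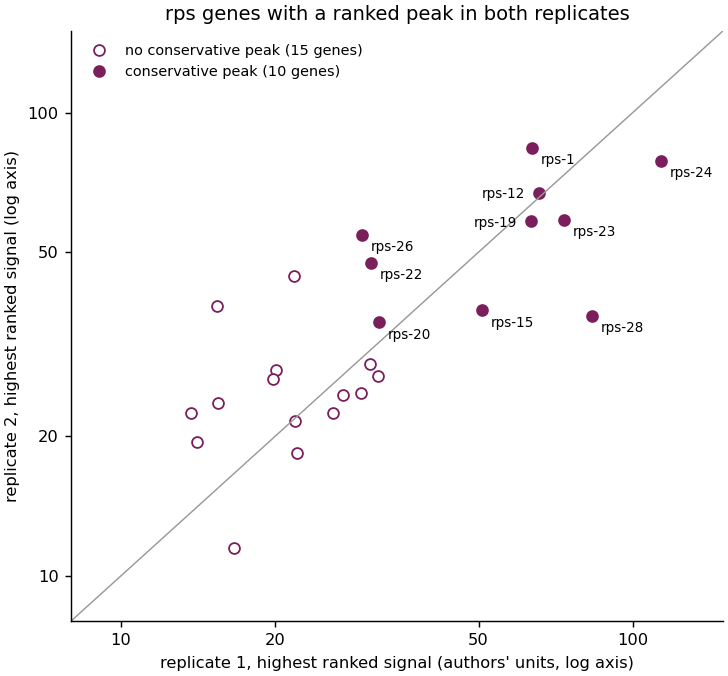
Highest ranked signal in replicate 2 against replicate 1 (authors' units, log axes) for the 25 rps genes with a ranked peak in both; the line marks equal values and filled points have a conservative peak. Rps-28 (83.3 and 36.5) lies farthest below the line and rps-26 (29.6 and 54.6) highest above it among the filled points.

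Large subunit genes are the closest comparison. Of 47 rpl- genes, 8 had a conservative peak (17.0%, exact interval 7.65 to 30.8, beside 1.46% of all protein-coding genes), and the interval overlaps that of the rps genes; the difference was not tested. The signals of these 8 ran from 68.8 to 443.5 with a median of 185.9, beside 75.9 to 191.4 and a median of 119.5 for the 10 rps genes. All 8 summits lay upstream, at a median of -315.5 bp. In the top 5% of protein-coding genes by ranked signal were 16 of 47 rpl- genes (34.0%).

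For other genes of ribosome production the counts were too small to set apart from the 1.46% of all protein-coding genes with a conservative peak. None of 29 mrps- genes, which encode the small subunit of the mitochondrial ribosome, had one in any thresholded list (upper exact limit 11.9%). Of 41 mrpl- genes 1 (2.44%, exact interval 0.0617 to 12.9) had a conservative peak, mrpl-55 (signal 65.9). The small subunit proteins with other symbols, ubl-1, a ubiquitin-like fusion, and rack-1, a scaffold, had ranked signals of 47.9 and 47.3 and no thresholded peak. Neither had rla-0, rla-1, rla-2 and ubq-2 of the large subunit, with ranked signals of 49.9 at rla-1 and 46.9 at ubq-2 in the ranked list of 74251 peaks, which held no peak at rla-0 or rla-2.

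Genes listed for ribosome biogenesis gave 0 of 15 in the conservative list (upper exact limit 21.8%, beside 1.46% of all protein-coding genes). By ranked signal ncl-1 (60.8), pro-1 (60.0) and fib-1 (49.5), the fibrillarin gene, were highest. Genes of growth signalling to the small subunit gave 0 of 6 (upper exact limit 45.9%, beside the same 1.46%). Highest there were rheb-1 (53.8), an activator of the TOR kinase, ragc-1 (46.6) and daf-15 (24.6), while rsks-1, the kinase of the rps-6 protein, stood at 21.3. Rps-6 itself had a ranked signal of 47.3 and no conservative peak.

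**Figure D5:**
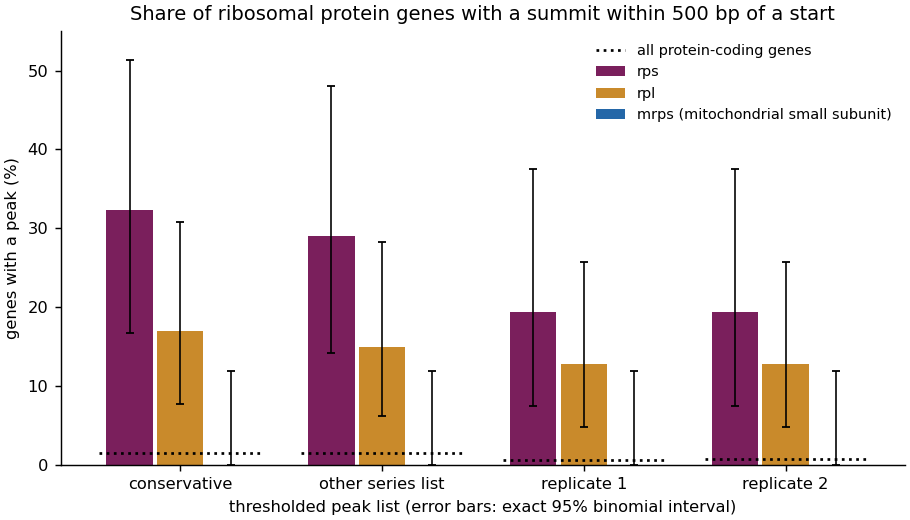
Share of rps-, rpl- and mrps- genes (%) with a summit within 500 bp of a start in each of the 4 thresholded lists, with exact 95% binomial intervals; dotted lines give the share of all protein-coding genes. The rps share is 32.3% in the conservative list and 19.4% in each replicate list, and no mrps- gene has a peak in any list.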

How the data were processed

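The 8 peak lists the authors deposited for the 2 replicates were used. Per the labels, positions are on ce11. The file lists deposited with each sample name filtered alignments and a control alignment as the input to the peaks. The sources used here name neither the aligner nor the peak caller. The signal is the peak's own value as the authors deposited it, on an unstated scale, and was set between lists only as the ratio of the replicates, beside the median ratio over all genes. The score the authors deposited is scaled from the IDR, up to 1000. The authors deposited q-values and the IDR as −log10 values. Testing showed that no rps peak at an IDR of at most 0.01 was missing from its thresholded list. In the series' 2 ranked lists, 16 columns of unnamed values were not used.

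Starts came from Ensembl release 115. Sequence came from the RefSeq copy of WBcel235, the assembly also called ce11, and every peak lay on one of its 6 nuclear chromosomes. A gene took the highest signal among summits within 500 bp of any of its starts, and one peak could count for several genes. For percentiles, genes with no peak took a signal of 0 and shared the middle rank of that tie. In the ranked list of 74251 peaks this was a percentile of 19.6. Intervals are exact (Clopper-Pearson, 95%). Read depth is unknown from the lists. A single group allowed no test between conditions, and results are descriptions. By rule, the text names every rps gene with a thresholded peak, the 3 highest and 3 lowest of the rest in the ranked list of 74251 peaks that holds the conservative one, and at most the 3 highest genes of each other list. Outside it, rps-0, rps-2, rps-3, rps-6, rps-17, rps-18, rps-25, rsks-1, rla-0 and rla-2 were named after their values were seen. Of 17 ribosome biogenesis genes listed, 15 were found by symbol. The members, lists and words were chosen with earlier results of these data known. Python 3.11.15, numpy 2.4.6 and scipy 1.17.1 were used, and peak assignment was tested on simulated data.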

Additional observations from a re-analysis of the deposited data

How the results depend on the processing

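The count of 10 rps genes with a conservative peak stayed at 10 with a window of 1000 bp. It also did with protein-coding transcripts only and with any base of a peak in the window. The count was 9 in the other thresholded list and 12 at an IDR of 0.05 in the ranked list of 74251 peaks. The share of all protein-coding genes moved with these settings, from 0.471% at an IDR of 0.001 to 2.72% at 0.05, beside 1.46%. The rps count was 3 with a window of 200 bp, 6 at an IDR of 0.001, 4 with nearest starts only, and 6 without replicate 1 and 6 without replicate 2. In those last 2 runs the 6 genes were all among the 10. The rpl- count of 8 was 2 at 200 bp, 5 with nearest starts only and 14 at an IDR of 0.05. The median summit of -291 bp was -92 bp at 200 bp and -216 bp with nearest starts only, and ran from -286 to -275 bp with a replicate left out. The medians at 200 bp and with nearest starts only take rps-23 by its weaker peak inside the gene, 22 bp downstream of a start. The median percentile of 95.9 was 32.5 at 200 bp and 87.9 to 93.9 with a replicate left out. The 16 genes in the top 5% became 7 at 200 bp and 13 to 16 under the other 7 alternatives. The narrower window leaves out summits by construction, and nearest starts give shared sites to the neighbour. Unknown depth limits how far replicate differences at single genes can be read.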

Other observations

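A set of 4 rps sites shared a pair of words that few other sites held. The windows reaching 50 bases to each side of the summit at rps-15, rps-19, rps-20 and rps-22 each held both CAGCCAA and ACTCAG, on either strand, where the 2 can overlap in part. Only 6 of the 551 conservative windows (1.09%) held both, so 4 of these 6 were rps sites. Of the other 2, one had a signal of 301.0 and no start within 500 bp, and the other, with a signal of 81.5, lay near piRNA genes. Of windows 250 bp upstream of protein-coding genes, 18 (0.0901%) held both, and of the 8 rpl- windows 0 did. The peaks at rps-15, rps-20 and rps-22 were in neither replicate's thresholded list, while that at rps-19 was in both. The pair was chosen after the windows had been read and was not tested.

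The windows of rps-23 and rps-26 shared a run of 14 identical bases. Over the 45 pairs of rps windows the median longest shared run was 7 bases and the second longest was 10. Of 151525 pairs of conservative windows, 613 (0.405%) shared a run of 14 bases or more. That share is per pair, whereas the rps pair was picked as the longest of 45 after all had been read. The match was not tested.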
